A study of Saccharomyces cerevisiae with 22 samples.

Results

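The vacuole is the yeast cell's lytic compartment, and autophagy delivers cytoplasmic RNA to it. The libraries described here asked how the makeup of the mRNA found with vacuoles changed when rapamycin was given. They were the 3 vacuole-fraction RNA-seq libraries labelled rny1Δ, of 22 libraries in the series. They were chosen by their titles: 2 replicates from cells given 0.2 µM rapamycin for 3 h, and 1 library from growing cells. All came from a Saccharomyces cerevisiae strain carrying rny1Δ::natNT2, with the background labelled X2180-1a where the study's strain list has X2180-1B, and cultured in rich medium (YPD). The cells were converted to spheroplasts and lysed, and vacuoles were floated by ultracentrifugation. 2 sets of libraries served for comparison, each with 2 rapamycin libraries and 1 growing library: total lysates of the same strain, and vacuole fractions of a strain that also lacked ATG2. The values were used as levels within the vacuole fraction, without division by the level in total lysate.

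Rapamycin inhibits TORC1, the kinase complex that couples nutrient supply to growth. When TORC1 is inhibited, yeast turns down the synthesis of ribosomes, induces genes for stress resistance, reserve carbohydrates, respiration and poor nitrogen sources, and starts bulk autophagy. Autophagosomes carry cytoplasm to the vacuole, where Rny1, a nuclease of the RNase T2 family, degrades RNA; cells without Rny1 are used so that delivered RNA can be collected. Atg2 is needed to build autophagosomes. Normalisation within each library leaves the makeup of the fraction and no information on how much RNA it contained.

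The rapamycin vacuole libraries had 10868832 and 13097522 reads counted on genes, and the growing one had 19257411. Of uniquely aligned reads, 46.3% and 46.4% in the rapamycin libraries and 45.9% in the growing one lay outside counted genes. Alignments that were not unique numbered 2.83 and 2.97 per gene count in the rapamycin libraries and 1.06 in the growing library, and they were not counted. RNY1 had 416 and 418 counts in the rapamycin vacuole libraries and 320 in the growing one, although the strain is labelled as deleted for it. These were 33.9 and 28.8 CPM, which are counts scaled to the normalised library size, with rapamycin and 19.4 CPM in growing cells, and wild-type total RNA, counted in another way, had 73.9 CPM after 3 h of rapamycin and 5.01 and 5.77 CPM in growing cells. The part of the locus that gave these reads is unknown from a count per gene, so rny1Δ is used throughout as the label of the libraries and no direction is drawn from it. ATG2 had 1101 and 1353 counts in the rapamycin vacuole libraries and 1065 in the growing one, whereas the 2 growing libraries labelled as also lacking ATG2 had 15 counts in total lysate and 9 in the vacuole fraction. In the rapamycin vacuole libraries of that strain ATG2 stood at 3.77 and 0 CPM, against 0.507 CPM in its growing vacuole library, and at 89.8 and 93.3 CPM in the rapamycin rny1Δ ones. The growing vacuole side has 1 library, so the test took its spread from the replicate pairs, and the study describes those replicates as independent.

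The vacuole fraction changed broadly. A gene was called when its log2 change was at least 1 in size, which is 2-fold, with an adjusted p under 0.01 in edgeR's quasi-likelihood test. Of 5753 protein-coding genes tested, 1208 rose with rapamycin (21.0%) and 999 fell (17.4%). In each of these 2207 genes both rapamycin libraries lay on the same side of the growing library. The 2-fold threshold and the closeness of the rapamycin libraries made this likely in advance. Larger changes were common, with 204 genes rising and 166 falling by at least 3 on the log2 scale, and 40 rising by at least 5 against 2 falling by that much. The median log2 change over all genes was 0.11 with TMM scaling and 0.47 when only library totals were used, and with totals alone 1771 genes rose and 680 fell. The changes below are given with TMM scaling as fitted, so they are to be read against the median of 0.11.

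**Figure D1:**
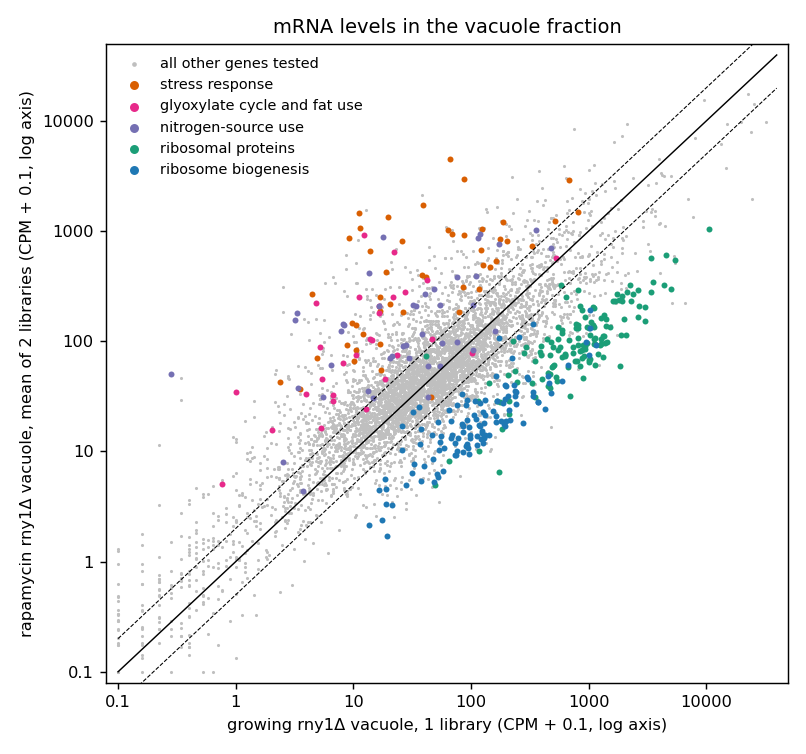
Each point is a gene, with the mean of the 2 rapamycin rny1Δ vacuole libraries on the vertical axis and the growing library on the horizontal axis, both in CPM plus 0.1 on log axes. The solid line marks equal levels and the dashed lines 2-fold. Most ribosomal protein and ribosome biogenesis genes lie below the lines, and most stress response genes lie above them, such as HSP26 at 4374 and 4674 CPM in rapamycin libraries and 65.7 CPM in the growing one.

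The most abundant mRNAs per length also changed places. In TPM, a level scaled by gene length and by the library's sum, CCW12 ranked 2 in the rapamycin vacuole libraries and 1 in the growing one, with 44049 and 43753 TPM against 25268 TPM. CCW12 encodes a mannoprotein of the cell wall, and its log2 change of 0.71 ± 0.16 (SE) was not called. HSP26, a small heat shock protein, stood at 7722 and 8150 TPM with rapamycin and at 108 TPM in growing cells, where it ranked 1146. RPS31, which encodes ubiquitin fused to a small-subunit ribosomal protein, stood at 812 and 804 TPM with rapamycin and at 10203 TPM in growing cells. The 100 genes with the most counts held 36.3% and 35.7% of counts in the rapamycin libraries and 43.1% in the growing one. The rapamycin libraries shared 94 of these 100 genes with each other, and shared 38 and 35 with the growing library. The gene with the highest TPM after rapamycin, YKL096C-B (57215 and 54148 TPM, against 13538 TPM in the growing library), lies on chromosome XI at 259073 to 259222 in the R64 assembly, 30 bases before CWP2 and on the opposite strand. Its counts followed those of CWP2 over the 12 libraries (Pearson's r of log2 counts 1.00, a description), and since the counting is not stated to use strand, the 2 cannot be told apart.

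Ribosomal protein mRNAs fell almost as a whole. Of 80 tested genes of the large subunit, 79 fell and 0 rose, with a median log2 change of −3.11, and of 55 tested genes of the small subunit, 54 fell and 0 rose, with a median of −3.14. RPL9A had 61.1 and 57.1 CPM in rapamycin libraries and 1840 CPM in the growing library. This was a log2 change of −4.96 ± 0.13 (SE, edgeR adjusted p = 2.5e-14), the largest fall among genes that averaged at least 10 CPM. RPS3 had 156 and 151 CPM with rapamycin, against 3016 CPM in growing cells, and RPL3, the one with the highest CPM of the family in growing vacuoles (RPL41A and RPS31 were higher in TPM, which accounts for length), had 1042 and 1039 CPM against 10566 CPM. The rapamycin replicates were close to each other and far below the growing library in these genes. The large-subunit genes together took 1.33% and 1.26% of counts with rapamycin and 8.94% in growing cells, and the small-subunit genes took 0.854% and 0.810% against 5.74%. The widest 95% Wilson interval of any such share reached 0.0208 percentage points to each side, which covers counting error only.

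Within the family the falls were unequal. RPS28B (107 and 96.2 CPM with rapamycin, 229 CPM in growing cells) fell by 1.17 on the log2 scale, and RPS23A (256 and 248 CPM, against 642 CPM) fell by 1.35. The ribosomal protein genes that did not pass were RPS30A (341 and 307 CPM with rapamycin and 578 CPM in growing cells, log2 change −0.84 ± 0.12) and RPL15B (72.8 and 73.5 CPM against 41.4 CPM, 0.82 ± 0.14). ASC1, which encodes a ribosome-bound scaffold protein, had 232 and 215 CPM with rapamycin and 6578 CPM in growing cells, a log2 change of −4.88 ± 0.17. Many ribosomal protein genes are duplicated with near-identical copies, and reads that aligned to both copies were not counted, so the values of single paralogs are uncertain.

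The machinery that makes ribosomes fell with them. Of 119 tested ribosome biogenesis genes, 115 fell and 0 rose (median log2 change −2.74). NOP58, a core protein of box C/D snoRNPs, had 24.6 and 23.5 CPM with rapamycin and 429 CPM in growing cells. NOP1, the fibrillarin homologue, had 18.5 and 17.6 CPM against 276 CPM. The log2 changes were −4.15 ± 0.14 for NOP58 and −3.93 ± 0.15 for NOP1. The 4 members that did not pass were ESF1, RPF1, RIO1 and SSF2, with log2 changes between −0.69 and −0.50. Of 26 genes for RNA polymerases I and III and their factors, 16 fell and 0 rose (median −1.86). RPA135, the second largest subunit of RNA polymerase I, had 55.5 and 65.9 CPM with rapamycin and 1216 CPM in growing cells. RPA190, its largest subunit, had 108 and 121 CPM against 1744 CPM. The initiation factor genes RRN5 and RRN7 had log2 changes of 0.65 ± 0.13 and 0.69 ± 0.14, which were not called.

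Translation factors and tRNA synthetases followed. Of 39 tested translation factor genes, 32 fell and 1 rose (median −1.77), and of 20 cytosolic tRNA synthetase genes, 17 fell and 0 rose (median −1.76). YEF3, elongation factor 3, had 2002 and 1941 CPM with rapamycin and 24515 CPM in growing cells, a log2 change of −3.64 ± 0.17. The gene that rose was HEF3, the paralog of YEF3, with 88.7 and 107 CPM against 10.1 CPM (3.28 ± 0.18). The pair thus changed in opposite directions. NIP1, an initiation factor 3 subunit, had 96.3 and 89.7 CPM with rapamycin and 854 CPM in growing cells. Among synthetases, CDC60, for leucine, had 184 and 164 CPM against 1093 CPM. SSB1, a ribosome-associated Hsp70, had 228 and 219 CPM with rapamycin and 5079 CPM in growing cells (−4.51 ± 0.16), and it led the constitutive chaperones, of which 11 of 30 fell and 2 rose. The chaperone genes that rose were SSA1, a cytosolic Hsp70 (4057 and 3937 CPM against 1123 CPM), and HSP10, the mitochondrial co-chaperonin (538 and 490 CPM against 185 CPM). URA7, CTP synthase, had 17.5 and 15.9 CPM with rapamycin and 475 CPM in growing cells, and was among the 10 largest falls.

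Stress response mRNAs moved the other way. Of 47 tested members, 45 rose and 0 fell, with a median log2 change of 3.36. HSP12, a stress protein of membranes, had 1285 and 1635 CPM with rapamycin and 11.03 CPM in growing cells. Its log2 change was 7.05 ± 0.27 (SE, edgeR adjusted p = 1.7e-13). DDR2, a stress-induced gene, had 790 and 944 CPM with rapamycin, against 9.03 CPM in growing cells. HSP104, the disaggregase, was already at 681 CPM in growing cells and had 2800 and 3029 CPM with rapamycin, a log2 change of 2.098 ± 0.16. The whole list took 3.89% and 4.36% of counts in rapamycin libraries and 0.434% in the growing library. The members that did not pass were GPX2, a glutathione peroxidase (−0.56 ± 0.12), and SOD1, the cytosolic superoxide dismutase (0.87 ± 0.13). YFL015C (29.7 and 29.3 CPM with rapamycin, 4 counts in the growing library) also stood among the largest rises, and it lies 292 bases from HSP12.

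**Figure D2:**
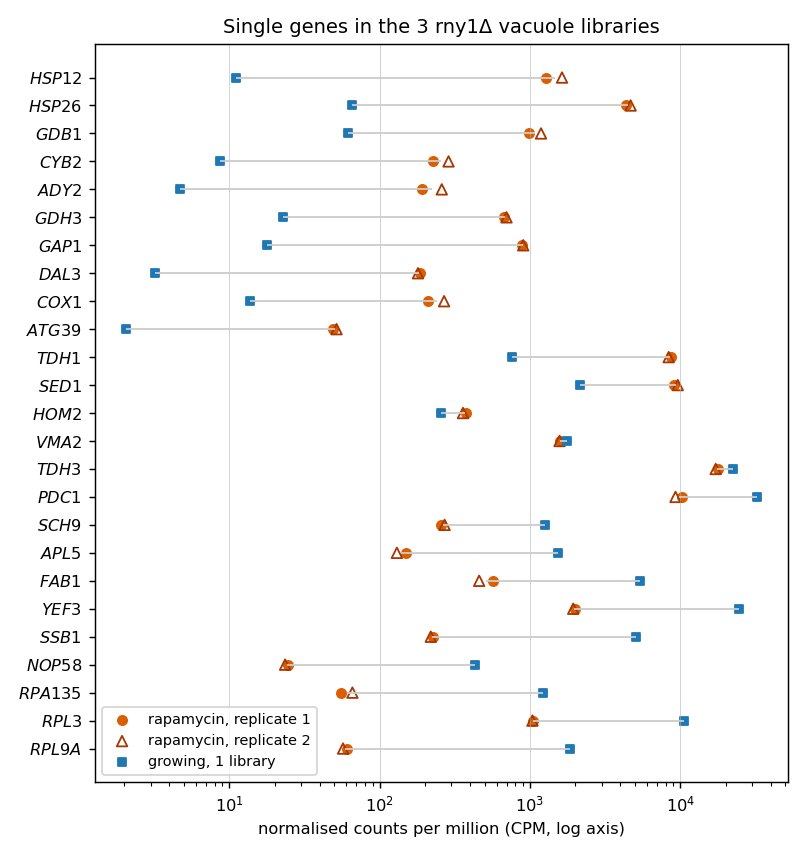
Normalised CPM on a log axis for 25 genes in the 3 rny1Δ vacuole libraries, with circles and triangles for the 2 rapamycin replicates and squares for the growing library. The rapamycin replicates lie close together in all genes shown, while HSP12 sits at 1285 and 1635 CPM with rapamycin against 11.03 CPM in growing cells and RPL9A at 61.1 and 57.1 CPM against 1840 CPM.

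Reserve carbohydrate genes rose. Of 29 genes of glycogen and trehalose metabolism, 22 rose and 0 fell (median 2.08). GDB1, the glycogen debranching enzyme, had 989 and 1185 CPM with rapamycin and 61.6 CPM in growing cells (log2 change 4.14 ± 0.22). GPH1, glycogen phosphorylase, had 1529 and 1684 CPM against 133 CPM, and TSL1, a regulatory subunit of trehalose synthase, had 1429 and 1616 CPM against 313 CPM. PIG2, a regulatory subunit of protein phosphatase 1 for glycogen, rose by 2.90 ± 0.17 and NTH2, a trehalase, by 1.16 ± 0.16 on the log2 scale. NTH2 had 109 and 130 CPM with rapamycin and 53.5 CPM in growing cells, and without replicate 2 its change was 0.91 and was not called.

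Genes for the use of carbon sources other than glucose rose by more. Of 28 genes of the glyoxylate cycle, gluconeogenesis and fatty acid use, 25 rose and 0 fell (median 3.00). ADY2, an acetate transporter, had 191 and 259 CPM with rapamycin and 4.73 CPM in growing cells. JEN1, the lactate permease, had 643 and 1223 CPM against 12.3 CPM, and here the rapamycin replicates differed from each other more than in most genes, though both lay far above the growing library. ICL1, isocitrate lyase, had 98.3 and 109 CPM with rapamycin and 46.2 CPM in growing cells, a rise of 1.17 ± 0.16 on the log2 scale. Of 29 genes of the tricarboxylic acid cycle and retrograde signalling, 20 rose and 1 fell (median 1.53). CIT2, the peroxisomal citrate synthase and a classical retrograde target, had 1442 and 1575 CPM with rapamycin and 138 CPM in growing cells (3.45 ± 0.16).

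Nuclear genes of the respiratory chain and ATP synthase rose nearly throughout, by smaller steps. Of 41 tested, 39 rose and 0 fell (median 1.92). CYB2, the mitochondrial lactate dehydrogenase, had 227 and 287 CPM with rapamycin and 8.73 CPM in growing cells (4.88 ± 0.19). ATP2, the beta subunit of ATP synthase, had 1974 and 2041 CPM against 718 CPM (1.48 ± 0.14). The members that did not pass were ATP10, an assembly factor, and NDE1, an NADH dehydrogenase. NDE2, the paralog of NDE1, rose by 4.16 ± 0.23. Genes of the mitochondrial ribosome did not follow: of 65 tested, 8 rose (12.3%) and 2 fell (3.08%), with a median of 0.32. Both shares were below those over all genes, 21.0% and 17.4%. The largest rise on that list was MRP8, with 500 and 535 CPM with rapamycin against 115 CPM in growing cells. Whether MRP8 belongs to the mitochondrial ribosome was not checked.

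Genes for the uptake and use of nitrogen sources rose in 33 of 42 cases and fell in 0 (median 1.91). DAL80, a GATA-family repressor of nitrogen catabolic genes, had 615 and 742 counts with rapamycin, 50.2 and 51.2 CPM, and 3 counts in the growing library. Over pooled rapamycin libraries this was a ratio of 279, with a 95% exact counting interval of 95.2 to 1354. GAP1, the general amino acid permease, had 884 and 902 CPM with rapamycin and 17.7 CPM in growing cells (log2 change 5.66 ± 0.18). DAL3, ureidoglycolate lyase, had 184 and 180 CPM against 3.21 CPM, and MEP2, an ammonium permease, had 416 and 425 CPM against 13.6 CPM. In these genes the 2 replicates were almost equal. The list also holds vacuolar peptidases, and APE1, aminopeptidase 1, rose by 2.96 ± 0.15 and CPS1, carboxypeptidase S, by 1.53 ± 0.14. The regulators URE2 and GLN3 had log2 changes of −0.48 ± 0.12 and 0.14 ± 0.13 and were not called.

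Of 91 tested amino acid synthesis genes, 23 rose and 14 fell, with a median of 0.24, which is near the shares over all genes of 21.0% and 17.4%. GDH1, the NADPH-dependent glutamate dehydrogenase, had 3159 and 3020 CPM with rapamycin and 222 CPM in growing cells (3.797 ± 0.24). Its paralog GDH3 had 670 and 698 CPM against 22.8 CPM (4.91 ± 0.18). In the arginine branch, ARG1 had 584 and 555 CPM with rapamycin and 59.8 CPM in growing cells, and ARG4 had 419 and 412 CPM against 55.9 CPM. Enzymes of branched-chain amino acid synthesis were among those that fell: LEU9, with a log2 change of −3.09 ± 0.13, and ILV5, with one of −2.098 ± 0.13. LYS1, saccharopine dehydrogenase, rose by 1.64 ± 0.13 and HIS5, of the histidine pathway, by 1.44 ± 0.16. HOM2, aspartate semialdehyde dehydrogenase, had 378 and 359 CPM with rapamycin and 257 CPM in growing cells, and ARO2, chorismate synthase, had 339 and 325 CPM against 458 CPM. Neither was called, at 0.52 ± 0.12 for HOM2 and −0.46 ± 0.15 for ARO2. GCN4, the transcriptional activator of this pathway, had 1819 and 1774 CPM with rapamycin and 994 CPM in growing cells, and was not called either (0.85 ± 0.14).

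Glycolysis held both the most abundant mRNAs and changes in both directions. Of 22 genes, 6 rose (27.3%) and 7 fell (31.8%), where the shares over all genes were 21.0% and 17.4%. The 22 genes together took 13.4% and 12.5% of counts with rapamycin and 17.0% in growing cells. PDC1, pyruvate decarboxylase, had 10287 and 9299 CPM with rapamycin and 32350 CPM in growing cells (−1.72 ± 0.18). TDH1, the minor isozyme of glyceraldehyde-3-phosphate dehydrogenase in growth, had 8617 and 8376 CPM against 760 CPM (3.48 ± 0.21), whereas TDH2 had 785 and 737 CPM against 3215 CPM (−2.08 ± 0.16) and TDH3 had 17690 and 17205 CPM against 22496 CPM (−0.37 ± 0.19, not called). The 3 isozymes thus took 3 courses in the reads counted. Reads that aligned to more than 1 of them were not counted, so the values of single isozymes are uncertain. GPM1, phosphoglycerate mutase, was at −0.20 ± 0.17, and at 0.16 with library totals only. HXK1, hexokinase 1, rose by 3.00 ± 0.17.

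Of 21 tested hexose transporter genes and relatives, 10 rose and 1 fell (median 1.15). HXT1, the low-affinity glucose carrier, had 10.8 and 9.24 CPM with rapamycin and 144 CPM in growing cells (−3.86 ± 0.15). HXT5 had 1151 and 1958 CPM against 12.8 CPM (6.92 ± 0.35), again with a gap between the replicates, and HXT7, a high-affinity carrier, had 480 and 672 CPM against 59.6 CPM. Of 17 amino acid permeases, 5 rose (29.4%) and 4 fell (23.5%), with a median of −0.39, where the shares over all genes were 21.0% and 17.4%. AGP2 rose by 1.94 ± 0.14 and ALP1 by 2.44 ± 0.22, and TAT1 fell by 2.25 ± 0.15 and GNP1 by 1.81 ± 0.12. PMA1, the plasma membrane proton pump, had 3745 and 3788 CPM with rapamycin and 14854 CPM in growing cells.

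Cell wall and secreted protein genes took 7.10% and 7.12% of counts with rapamycin and 3.49% in growing cells. Of 46, 11 rose (23.9%) and 5 fell (10.9%), where the shares over all genes were 21.0% and 17.4%. Mannoproteins were among those that rose. SED1 had 9129 and 9626 CPM with rapamycin and 2140 CPM in growing cells (2.13 ± 0.18), and PIR3 had 148 and 153 CPM against 66 counts, or 4 CPM (5.23 ± 0.18). Wall-building enzymes were among those that fell, with FKS1, a glucan synthase, at 1081 and 1154 CPM against 4508 CPM and GAS1, a glucanosyltransferase, at 645 and 623 CPM against 2500 CPM.

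Of 44 autophagy genes, 19 rose (43.2%) and 1 fell (2.27%), with a median of 0.85, where the shares over all genes were 21.0% and 17.4%. ATG39, a receptor for selective autophagy of the nucleus and endoplasmic reticulum, had 48.9 and 51.7 CPM with rapamycin and 2.06 CPM in growing cells (4.604 ± 0.20). ATG8, the ubiquitin-like protein of the autophagosome membrane, had 113 and 114 CPM against 16.5 CPM (2.78 ± 0.18). The cargo receptors ATG34, ATG36 and ATG19 rose by 3.09 ± 0.17, 2.76 ± 0.18 and 2.19 ± 0.14. The one that fell was BRE5, a deubiquitinase cofactor, at 60.4 and 71.7 CPM with rapamycin and 179 CPM in growing cells. ATG11, the scaffold of selective autophagy, was at −0.70 ± 0.13 and was not called.

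Of 24 genes for vacuolar hydrolases and other vacuolar proteins, 11 rose (45.8%) and 3 fell (12.5%), with a median of 0.81. Over all genes the shares were 21.0% and 17.4%. PRB1, proteinase B, had 1350 and 1562 CPM with rapamycin and 227 CPM in growing cells (2.68 ± 0.17), and PEP4, proteinase A, had 1269 and 1386 CPM against 478 CPM (1.47 ± 0.14). AMS1, alpha-mannosidase, rose by 3.82 ± 0.16. The members that fell were VTC3 and VTC4, subunits of the polyphosphate polymerase, and PFF1, a membrane peptidase. The vacuolar ATPase stood apart from the hydrolases. Of its 17 tested genes, 1 fell and 0 rose, with a median of −0.04 (0.32 with library totals only). VMA2 had 1597 and 1574 CPM with rapamycin and 1775 CPM in growing cells, and VPH1, the vacuolar isoform of the membrane subunit, was the one that fell, with 416 and 402 CPM against 1142 CPM (−1.48 ± 0.12).

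Of 36 proteasome genes, 2 rose (5.56%) and 1 fell (2.78%), where the shares over all genes were 21.0% and 17.4%. The list median was 0.42. The ones that rose were RPN4, the transcription factor of the proteasome genes, and RPT2, an ATPase subunit. Of 11 histone genes, 0 passed in either direction with edgeR and 0 with DESeq2, while 5 had an unadjusted p under 0.05, and the median of 0.16 was −0.03 without rapamycin replicate 1. HTB2, a histone H2B gene, had 554 and 521 CPM with rapamycin and 539 CPM in growing cells. Cell cycle genes fell in 12 of 34 cases and rose in 1 (median −0.67), where the shares over all genes were 17.4% and 21.0%, with RNR1, the large subunit of ribonucleotide reductase, at 186 and 167 CPM with rapamycin and 621 CPM in growing cells. RNR3, its damage-inducible paralog, rose by 1.17 ± 0.21. Of 25 ergosterol genes, 3 fell (12%) and 1 rose (4%), both below the shares over all genes. ERG11, lanosterol demethylase, had 214 and 199 CPM with rapamycin and 756 CPM in growing cells.

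Among 42 genes of nutrient-signalling kinases and their partners, 6 rose (14.3%) and 3 fell (7.14%), with a median of 0.15. Both shares were below those over all genes, 21.0% and 17.4%. YAK1, a kinase that opposes growth, had 318 and 409 CPM with rapamycin and 90.1 CPM in growing cells (2.01 ± 0.17). YPK2 rose by 2.22 ± 0.13. TPK2, a catalytic subunit of protein kinase A, rose by 1.63 ± 0.14, and TPK3, another such subunit, fell by 1.68 ± 0.17. SCH9, the main TORC1 substrate kinase of the growth programme, had 257 and 271 CPM with rapamycin and 1258 CPM in growing cells (−2.25 ± 0.12), and SIP1, a subunit of the Snf1 kinase complex, fell by 1.51 ± 0.12.

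Transcripts of the mitochondrial genome served as markers of another compartment that a vacuole fraction could hold. Of 8 such mRNAs, 7 rose. COX1, cytochrome oxidase subunit 1, had 210 and 268 CPM with rapamycin and 13.7 CPM in growing cells (4.13 ± 0.26), and OLI1, an ATP synthase subunit, had 208 and 277 CPM against 18.2 CPM (3.73 ± 0.25). ATP8 had 0 counts in the growing library and under 1 CPM with rapamycin. The median log2 change was 3.75 over the other 7. Together they took 0.109% and 0.134% of counts in rapamycin vacuole libraries and 0.00624% in the growing one, and in total lysates 1.46% and 2.02% with rapamycin and 0.298% in growing cells. They therefore made up a smaller share of the vacuole fraction than of the lysate in both states, and their part in the changes of other genes was not tested. Small nucleolar RNAs, the markers chosen for the nucleus, were at 0 of the counted features and could not serve.

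5 genes had been noted in these data for high levels in growing vacuole fractions, so their levels are described here without a test. FAB1, the vacuolar phosphatidylinositol 3-phosphate 5-kinase, had 567 and 459 CPM with rapamycin and 5386 CPM in growing cells. APL5, a subunit of the AP-3 adaptor that sorts cargo to the vacuole, had 149 and 130 CPM against 1540 CPM. ASG1 had 47.7 and 49.2 CPM against 302 CPM, RAV1, of a complex that assembles the vacuolar ATPase, 369 and 339 CPM against 1584 CPM, and GIS3 112 and 124 CPM against 346 CPM. The 5 genes took 0.149% and 0.129% of counts with rapamycin and 0.842% in growing cells in the vacuole fraction. Their summed share also fell in rny1Δ atg2Δ vacuoles, with 0.197% and 0.194% with rapamycin and 0.719% in growing cells. In total lysate the shares were 0.0881% and 0.0912% with rapamycin and 0.0555% in growing cells, so the summed share there moved the opposite way. Of the single genes, RAV1, GIS3 and FAB1 had lysate changes of 1.10, 2.18 and 0.75, whereas APL5 and ASG1 had −0.40 and −0.19.

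**Figure D3:**
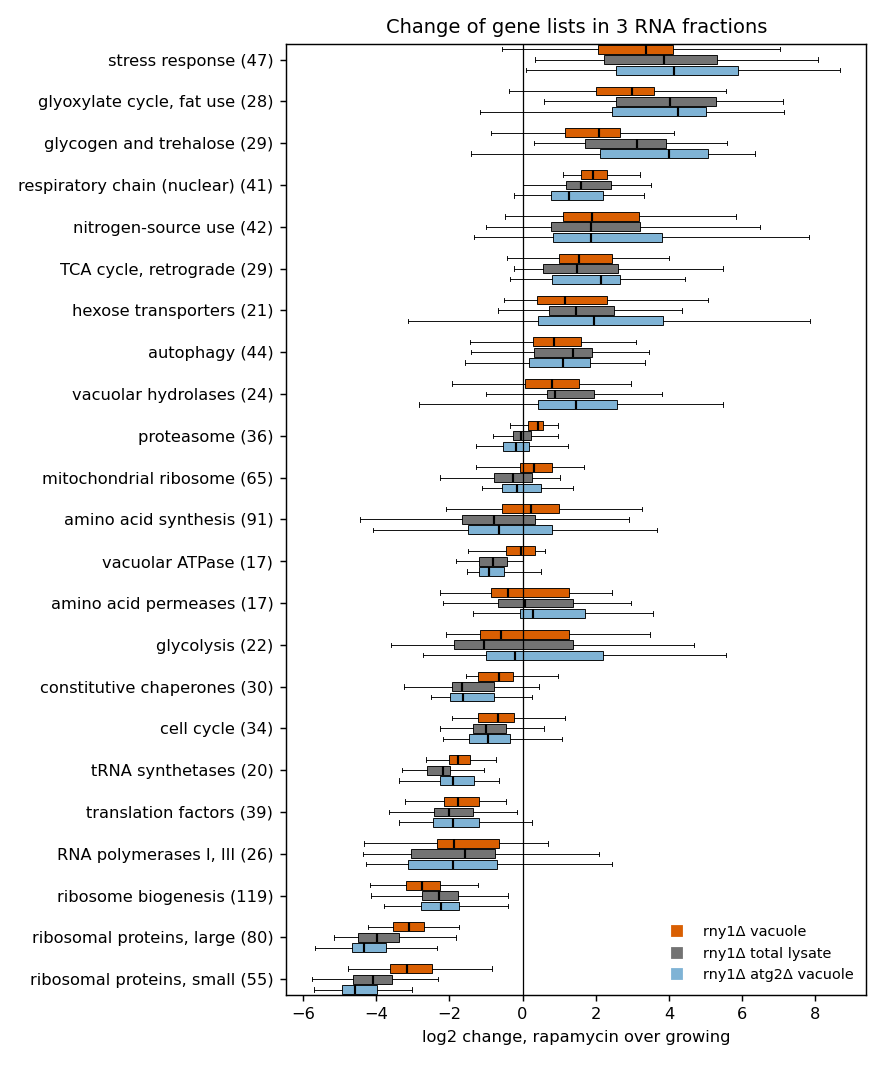
Boxes give the median and quartiles of the log2 change of each gene list, rapamycin over growing, with whiskers to 1.5 interquartile ranges, for the rny1Δ vacuole fraction, the rny1Δ total lysate and the rny1Δ atg2Δ vacuole fraction. The number of genes tested is in brackets. Large-subunit ribosomal protein genes have medians of −3.11, −3.97 and −4.32, and glycogen and trehalose genes of 2.08, 3.11 and 3.998.

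The total lysate of the same strain showed how far the vacuole change was that of the cell as a whole. In total lysate 1228 genes rose with rapamycin (21.3%) and 1318 fell (22.9%). Of the 1208 that rose in the vacuole fraction, 70.7% rose in the lysate, which was 69.5% of those that rose there, and of the 999 that fell in the vacuole, 79.3% fell in the lysate, which was 60.1% of those. The difference of the 2 changes was then tested gene by gene. The vacuole change was above the lysate change in 697 genes (12.1%) and below it in 459 (7.98%), which is 20.1% in all, and with library totals only in 1190 and 197. The balance of the counts turned without rapamycin vacuole replicate 1 (485 above and 575 below), without replicate 2 (547 and 688) and with DESeq2's Wald test (389 and 508), so it is not read as a direction.

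Ribosomal protein genes fell less in the vacuole than in the cell. The difference was called higher in 26 of 80 large-subunit and 26 of 55 small-subunit ribosomal protein genes and lower in 1 and 0. Over all genes the shares were 12.1% higher and 7.98% lower. RPS28B, for example, had a log2 change of −1.17 in the vacuole fraction and −3.08 in total lysate. RPL3 was the exception, with −3.34 ± 0.15 in the vacuole and −2.07 in the lysate. Both ribosomal protein lists hold short genes, with medians of 143 and 134 codons. All genes of 100 to 200 codons had medians of 0.55 in the vacuole and −0.29 in the lysate. The part that length played in these lists was not tested. For ribosome biogenesis genes the difference was called lower in 14 of 119 and higher in 2. The lower share was near that over all genes, so no direction is drawn from it. The medians were −2.74 in the vacuole and −2.28 in the lysate. Several lists that rose in the cell rose less in the vacuole. The difference was called lower in 17 of 29 glycogen and trehalose genes, 15 of 28 genes of the glyoxylate cycle and fat use, and 16 of 47 stress genes, and higher in 1, 1 and 3. CYB2 rose by 4.88 in the vacuole and by 6.76 in the lysate, and YAK1 by 2.01 in the vacuole and by 3.92 in the lysate.

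Amino acid synthesis genes differed in the other direction. The vacuole change was higher in 44 of 91 and lower in 1, where the background was 12.1% and 7.98%, and the median was 0.24 in the vacuole and −0.77 in total lysate. HOM2 changed by 0.52 ± 0.12 in the vacuole and by −1.73 in the lysate, a difference of 2.25 ± 0.17. For LYS1 the difference was 1.83 ± 0.18, for HIS5 1.72 ± 0.22 and for ARO2 1.98 ± 0.22. The study named HOM2, LYS1, HIS5 and ARO2 as vacuole-enriched from these same libraries, after accounting for the lysate change. Their differences are therefore a description only. GDH1, which rose in both, rose by 1.68 more in the vacuole. Ergosterol genes (8 of 25 higher, 0 lower), vacuolar ATPase genes (7 of 17 higher, 0 lower), mitochondrial ribosome genes (16 of 65 higher, 0 lower) and the mitochondrially encoded mRNAs (6 of 8 higher, 0 lower) also differed upwards more often than downwards. Signalling kinase genes differed downwards, with 11 of 42 lower and 0 higher. SCH9 was the largest of these at −2.90: it fell by 2.25 in the vacuole while the lysate change was 0.65. SCH9 was also high in the growing vacuole fraction, at 1258 CPM against 101 CPM in growing lysate. In rny1Δ atg2Δ vacuoles it fell as well, by 1.54.

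**Figure D4:**
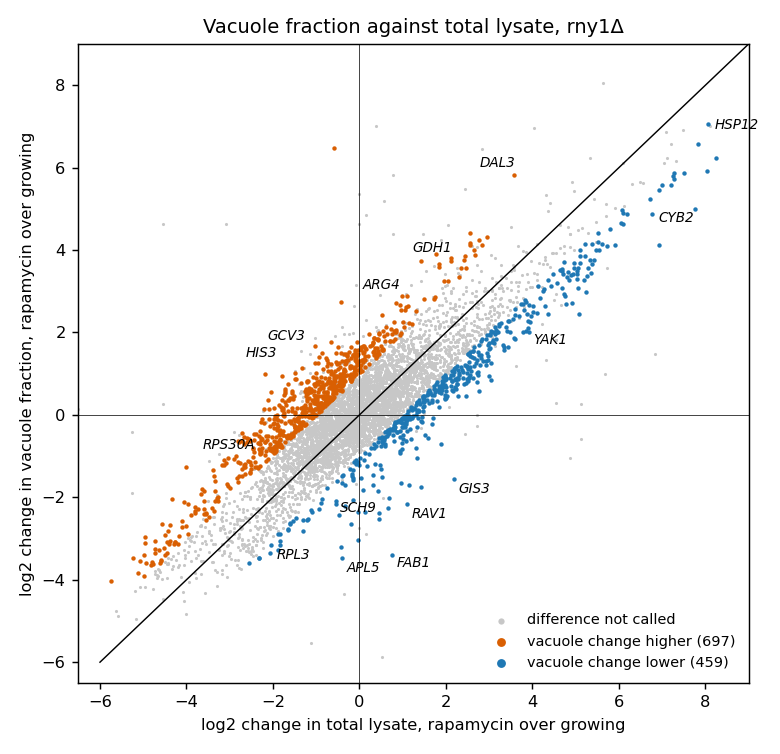
The log2 change of each gene in the rny1Δ vacuole fraction, rapamycin over growing, against the same change in rny1Δ total lysate. The diagonal marks equal change, and colours mark genes whose difference was called: 697 with a higher and 459 with a lower vacuole change. GIS3, RAV1, FAB1, APL5 and SCH9 lie far below the diagonal. GIS3, RAV1, FAB1 and APL5 had been noted for their high growing vacuole level, so their place is a description only.

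10 genes were called in opposite directions in the vacuole fraction and in the lysate. GCV3, of the glycine cleavage system, had 524 and 522 CPM with rapamycin and 165 CPM in growing cells in the vacuole fraction, a rise of 1.66 ± 0.15, and changed by −1.03 in total lysate. EGO2, which helps to tether a TORC1 regulator to the vacuole, AUA1, MRPL39 and SDD2 showed the same pattern with rises between 1.02 and 1.27. The reverse was seen for MHP1, RAV1, SPT23, GIS3 and AIM44, of which RAV1 and GIS3 are a description only, since they had been noted for their growing vacuole level. MHP1 had 1203 and 1144 CPM with rapamycin and 3952 CPM in growing cells in the vacuole fraction (−1.75 ± 0.14), and changed by 1.43 in the lysate. In growing lysate MHP1 stood at 188 CPM. Chosen after their values were seen, several other mRNAs fell in the vacuole fraction with no called change in the lysate. VAC8, a vacuole inheritance protein, had 719 and 590 CPM against 3342 CPM, VPS35, of the retromer complex, 195 and 190 CPM against 1007 CPM, and IVY1, a vacuolar membrane protein, 66.5 and 67.4 CPM against 209 CPM. For these the difference from the lysate change was −2.31 ± 0.20, −2.83 ± 0.16 and −2.60 ± 0.17. Their levels in growing lysate were lower than in growing vacuoles, at 240, 164 and 43.3 CPM. Other mRNAs with such a fall were RSP5, a ubiquitin ligase (1480 and 1199 CPM against 7668 CPM), and NIC96, of the nuclear pore (158 and 153 CPM against 1437 CPM). In growing lysate RSP5 stood at 436 CPM and NIC96 at 150 CPM. VAC8, RSP5 and NIC96 also fell in rny1Δ atg2Δ vacuoles, with log2 changes of −2.77, −2.15 and −3.72. For these genes the difference between the vacuole fractions of the strains was not called. VPS35 and IVY1 had changes of −1.14 and −0.46 in rny1Δ atg2Δ vacuoles, and their rny1Δ change was called lower.

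The vacuole fraction of the strain that also lacked ATG2 gave the second comparison. There 1356 genes rose with rapamycin (23.6%) and 1325 fell (23.0%). One of its rapamycin libraries was shallow, with 535462 counts on genes. Of the genes that rose in rny1Δ vacuoles, 72.1% rose there as well, which was 64.2% of those that rose there, and of those that fell, 77.2% fell there, which was 58.2%. The rny1Δ change was above that of the double mutant in 781 genes (13.6%) and below it in 640 (11.1%), with library totals only in 1494 and 244, and without the deep atg2Δ replicate 1 in 362 and 440. Here too the balance turned without rny1Δ rapamycin replicate 1 (618 above and 697 below), without replicate 2 (682 and 817) and with DESeq2's Wald test (505 and 637).

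By list, this difference was of the same kind as that from the lysate in many cases. It was higher in 51 of 80 large-subunit and 46 of 55 small-subunit ribosomal protein genes, and lower in 0 of each. Over all genes the shares were 13.6% higher and 11.1% lower. All genes of 100 to 200 codons, a class of like length, had medians of 0.55 in rny1Δ vacuoles and −0.31 in the double mutant. RPS28B had a log2 change of −1.17 in rny1Δ vacuoles and −4.89 in rny1Δ atg2Δ vacuoles. It was lower in 21 of 29 glycogen and trehalose genes and higher in 0. GAC1, a glycogen-targeting subunit of protein phosphatase 1, rose by 3.67 in rny1Δ vacuoles and by 6.22 in the double mutant. Amino acid synthesis genes were higher in 35 of 91 and lower in 4, with HOM2 at 0.52 in rny1Δ vacuoles and −1.72 in the double mutant. Respiratory chain genes were higher in 15 of 41 and lower in 5, and the lower share was near that over all genes. The mitochondrially encoded mRNAs differed from the lysate comparison in sign, being lower in 6 of 8 and higher in 0, and they rose by a median of 6.15 in rny1Δ atg2Δ vacuoles. They took 0.313% and 0.451% of counts there with rapamycin. Glycolysis was lower in 9 of 22 and higher in 1, with PDC1 at −1.72 in rny1Δ vacuoles and −0.21 in the double mutant.

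Change in the vacuole fraction went with the length of the coding sequence. Genes of up to 100 codons had a median log2 change of 0.76, and 33.7% of the 350 rose and 12.6% fell. Genes of 1000 to 1500 codons had a median of −0.51, and 9.59% of the 344 rose and 29.7% fell. The medians of the classes between them lay in order of length, and that of the longest class, over 1500 codons, was −0.44. In total lysate the medians of the same 2 classes were 0.01 and −0.03. In rny1Δ atg2Δ vacuoles they were 0.03 and 0.10, and over the 7 classes the medians there ran from −0.31 for 100 to 200 codons to 0.43 for the longest class. Genes that rose in the vacuole fraction had a median of 312 codons and genes that fell one of 492 codons, against 396 codons over all genes. With a smooth trend over length removed from each library, 1150 genes rose and 898 fell, and of these 1008 and 811 were the same genes.

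**Figure D5:**
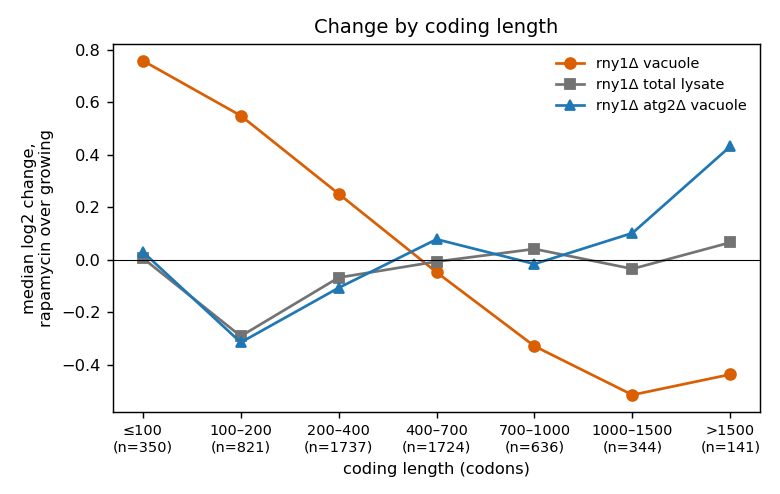
Median log2 change, rapamycin over growing, of genes in 7 classes of coding length in codons, for the rny1Δ vacuole fraction, the rny1Δ total lysate and the rny1Δ atg2Δ vacuole fraction. The vacuole medians run from 0.76 in the shortest class to −0.51 for 1000 to 1500 codons, and those of total lysate lie between −0.29 and 0.07.

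The 2 rapamycin vacuole libraries were close to each other. The log2 ratio between them had an SD of 0.18 over the 5753 genes, and 5 genes differed by 2-fold or more. The pair was not 1 library counted again, since a chi-square per gene averaged 10.4 where sampling noise alone gives about 1. The genes with at least 10 CPM that differed by 2-fold or more were FAT3, with 172 and 355 CPM, and SPS100, with 77.97 and 159 CPM. Both were far above the growing library, at 15.5 and 5.15 CPM.

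Wild-type cells given rapamycin for 3 h, sequenced as whole-cell RNA in a separate experiment with 1 rapamycin library and 2 growing ones, give a description with no test. Genes that rose in the vacuole fraction had a median log2 change of 1.52 there and genes that fell one of −0.46, where the median of all genes was 0.69 on the scale of log2(CPM + 0.5). Ribosomal protein genes of the large subunit had a median of −2.98, and stress genes one of 3.56. In ribosome footprints of the same design the medians were 1.34 for genes that rose in the vacuole fraction and −0.73 for genes that fell, where all genes had 0.43.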

How the data were processed

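RNA-seq of vacuole fractions and total lysates was used here. The authors removed adapters and rRNA reads (Bowtie2 2.1.0), aligned with TopHat2 2.0.9 to the S288C genome and counted with HTSeq 0.6.1; they deposited whole-number counts per gene and library, and reads that aligned more than once were left out. Values of single genes with close paralogs are therefore uncertain. The strand setting is not given in the sources used here. HTSeq's summary lines were dropped. Of 6696 genes listed, 6008 identifiers matched RefSeq R64 names, and 5753 protein-coding genes passed a minimum of 10 counts in the 12 vacuole-experiment libraries together and were tested with edgeR 4.0.16 (R 4.3.3) in 8 groups, with TMM factors, Benjamini-Hochberg adjustment and 4 residual degrees of freedom (common biological coefficient of variation 0.0775). CPM are edgeR's normalised values, and SE is the log2 change divided by the root of F. A 95% counting interval or a limit of 3 counts (0.182 to 0.245 CPM here) covers counting error only. In simulated counts for the same 5753 genes, the procedure called 200 of 200 genes changed by 2 on the log2 scale in the vacuole comparison, with 0 false calls. The simulation gave every gene and library the same spread, changed no genes with low counts and held no length trend. It therefore checks that the procedure runs as meant, and cannot show the error rate with a growing library of unknown spread.

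The members and the gene lists were chosen with earlier results of these data known, and lists share some genes. Genes were named by a rule: the 12 with the highest CPM in each state, the 10 largest rises and the 10 largest falls among called genes averaging at least 10 CPM with both rapamycin libraries on the same side, from each list the 2 called members that rose most and the 2 that fell most (else the 2 most abundant), the genes the study names for its vacuole data, and the deleted genes. Not every gene the rule picks is described. Results for some genes are not reported here. Other genes named were list members picked for their role or abundance, or chosen after their values were seen. Wild-type libraries were counted by another procedure and were only described. Alternatives covered scaling, test, filters, the libraries in the fit, left-out replicates, a replicate block and a length trend. No sequences are given.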

Additional observations from a re-analysis of the deposited data

Results flagged for a closer look

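The change in the rny1Δ vacuole fraction differed from that in other fractions by the test of the difference itself. Against the rny1Δ total lysate it was higher in 697 genes and lower in 459. Against the rny1Δ atg2Δ vacuole fraction it was higher in 781 genes and lower in 640.

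Genes called in opposite directions had the following differences in log2 change. Opposite calls put the size of each difference past the threshold in advance, so all are given as a description. RAV1 and GIS3 had also been chosen for their growing vacuole level. The lysate changes of MRPL39, AUA1 and GCV3, at −1.01, −1.02 and −1.03, were near the threshold. For genes that rose in the rny1Δ vacuole fraction and fell in the lysate, the difference was 2.69 for GCV3, 2.46 for EGO2, 2.28 for AUA1, 2.03 for MRPL39 and 2.53 for SDD2. For genes that fell in the vacuole fraction and rose in the lysate it was −3.18 for MHP1, −3.26 for RAV1, −2.38 for SPT23, −3.73 for GIS3 and −2.85 for AIM44.

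For genes that rose in rny1Δ vacuoles and fell in rny1Δ atg2Δ vacuoles, the difference was 2.90 for MAK31, 2.84 for EGO2, 2.58 for SEM1, 2.29 for WWM1, 2.39 for AUA1, 2.25 for SDD2, 2.43 for NCW1, 2.67 for ZIM17, 2.13 for MRPL50 and 2.12 for CUR1. WWM1 and AUA1 overlap by 167 bases on opposite strands, so their counts cannot be told apart. CHC1, the clathrin heavy chain, was the reverse case at −2.25. The rises of MRPL39 and SDD2 in the vacuole fraction, 1.02 and 1.03, were near the threshold of 1 and lost their call without either rapamycin replicate, and EGO2, at 1.14, lost its call without replicate 2.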

How the results depend on the processing

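The vacuole comparison kept its counts within 1.5 times under every alternative run, from 1040 to 1771 genes that rose and from 680 to 1139 that fell, but more genes fell than rose without rapamycin replicate 1 (1094 rose and 1139 fell) or replicate 2 (1040 and 1107). With library totals only, the vacuole change was above the lysate change in 1190 genes and below it in 197, and above that of rny1Δ atg2Δ vacuoles in 1494 and below it in 244. DESeq2's Wald test gave 389 genes higher and 508 lower than the lysate change, and 505 higher and 637 lower than the double mutant, which turns the balance of the counts. With the length trend removed, 459 were higher than the lysate change, and 467 were higher and 420 lower than the double mutant. Leaving out 1 replicate at a time, the count of genes above the double mutant ran from 362 to 785, the lowest without atg2Δ vacuole replicate 1, which left the shallow library alone. The cause was not tested where the construction of the alternative does not give it.

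Of 129 named genes, 102 kept their call and direction in the vacuole comparison under every alternative run. For EGO2 the change was 0.78 without rapamycin replicate 2, for MRPL39 0.91 without replicate 1 and 0.89 without replicate 2, and for SDD2 0.87 and 0.95. Sign changes were limited to small values. With library totals only, the median of the vacuolar ATPase genes was 0.32, GPM1 was at 0.16 and HTB2 at 0.36. HTB2 was at 0.0101 with at least 10 counts in each of the 3 libraries, 0.0323 in the fit of the 6 vacuole libraries and 0.0079 with the growing level averaged over both strains. With the length trend removed, the histone median was −0.42 and HHT2 was at −0.16. The histone median ran from −0.0313 to 0.157 when 1 library at a time was left out.

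With a replicate block, 1209 genes rose and 1000 fell in the vacuole, 729 were above and 476 below the lysate change, and 754 above and 663 below the double mutant. The replicate numbers are not stated to mark shared cultures, and the difference between replicates correlated between vacuole and lysate libraries with r = 0.278 across 5122 genes, which are not independent. The growing libraries carry no number to pair. With 1 growing library, its own spread cannot be measured and was taken as that of the replicate pairs.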
